A study of Mus musculus with 12 samples.

Results

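The genes described here make up the extracellular and receptor layer of Wnt signalling in the mouse dorsal forebrain, with 6 genes that carry the signal inside the cell. They were chosen by gene symbol, with earlier results of these data known. The choice covered every array gene whose symbol starts with Wnt, Fzd, Sfrp, Dkk, Rspo or Tcf7 in the numbering of those families. It also took in Axin1, Axin2, Ctnnb1, Lef1, Lrp5, Lrp6, Frzb, Wif1, Ror1, Ror2 and Ryk. The array held 56 such genes on 111 probe sets. A gene counted as measured where a probe set had a log2 value over 4 on at least 3 of the 12 arrays, and the probe set whose mean over the 12 arrays was highest represented it. By that rule 35 of the 56 genes were measured, among 11449 measured genes in all and 18193 genes with a probe set of a single symbol. Of the 35, 23 passed on arrays of both stages, 9 passed only through embryonic arrays and 3 only through adult arrays.

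Wnt proteins are secreted, lipid-modified ligands that bind Frizzled receptors together with the co-receptor Lrp5 or Lrp6. That binding stops the Axin-containing destruction complex from degrading beta-catenin, which then works with Tcf and Lef factors at target genes. Ror2 and Ryk are further Wnt receptors, R-spondins keep Frizzled at the cell surface, and Sfrp, Frzb, Wif1 and Dkk proteins act outside the cell. In the embryonic mouse telencephalon several Wnt and R-spondin genes are expressed at the cortical hem, the dorsal midline next to the choroid plexus.

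The study compared Qkf mutant with wild-type mice of the 129/Sv strain, in cortex of the adult and in its embryonic forerunner. Qkf is another name of Kat6b, a histone acetyltransferase gene, and the mutants carried the gene-trap allele on both chromosomes (Qkf gt/gt). The 4 groups of 3 arrays were adult mutant dorsal cerebral cortex, from males of 155, 112 and 99 days, adult wild-type dorsal cerebral cortex, from males of 155, 112 and 101 days, Qkf gt/gt dorsal telencephalon of E12.5 embryos (the stage counts days of gestation), and wild-type dorsal telencephalon of that stage. Each adult array is labelled with a single mouse and each embryonic array with its parents, and the number of embryos behind an embryonic array is not stated there. Mutant embryo 1 and wild-type embryo 1 came from cross A, and the other 4 embryos from cross B. The array names place all adults in 1 set, 5 embryos in another and mutant embryo 1 in a set of its own, so stage and array set cannot be told apart.

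Values are log2 expression values, 1 per probe set and array, and they order a gene between arrays but not different genes on an array. Arrays of a group correlated at 0.989 to 0.997 over all probe sets. Kat6b stood at 7.25, 7.17 and 6.92 in adult mutants and at 9.68, 9.35 and 9.72 in adult wild types (log2 difference -2.47, limma adjusted p = 0.017), and at 6.22, 7.24 and 7.72 in mutant embryos and 11.28, 11.40 and 11.42 in wild-type embryos (-4.31, adjusted p = 0.000191). In adults Kat6b no longer passed with 1 of the 6 arrays omitted, whichever it was (limma adjusted p of 0.0579 to 0.15). The 7 measured markers of dorsal telencephalic progenitors averaged 5.22 to 5.34 on adult arrays and 10.7 to 11.1 on embryonic arrays, and the 7 of adult cortical excitatory neurons averaged 10.6 to 11.1 on adult arrays and 6.10 to 6.34 on embryonic arrays. In such bulk tissue, fewer cells of a type and less RNA per cell cannot be told apart.

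The promoters of 5 genes on which the results below turn are printed here, each 250 bases before to 50 bases after a RefSeq transcription start on assembly GRCm38.p6, on the strand of the gene. Wnt7a had the lowest p between the genotypes, Axin2 is a feedback gene of the pathway, Tcf7l1 and Lef1 encode its nuclear factors and Dkkl1 had the largest adult excess. Matches to the Tcf and Lef motif CTTTGAA are in capitals, on either strand, as are those to the forms that end otherwise, namely CTTTGAT or else CTTTGTA or finally CTTTGTT.
Wnt7a, chr6:91411304-91411603, minus strand: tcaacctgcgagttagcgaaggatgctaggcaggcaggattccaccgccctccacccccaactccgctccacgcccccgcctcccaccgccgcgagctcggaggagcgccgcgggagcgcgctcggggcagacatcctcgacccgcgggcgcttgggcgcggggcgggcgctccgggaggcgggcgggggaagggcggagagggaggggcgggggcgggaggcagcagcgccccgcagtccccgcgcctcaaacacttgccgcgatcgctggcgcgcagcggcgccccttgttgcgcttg
Axin2, chr11:108920099-108920398, plus strand: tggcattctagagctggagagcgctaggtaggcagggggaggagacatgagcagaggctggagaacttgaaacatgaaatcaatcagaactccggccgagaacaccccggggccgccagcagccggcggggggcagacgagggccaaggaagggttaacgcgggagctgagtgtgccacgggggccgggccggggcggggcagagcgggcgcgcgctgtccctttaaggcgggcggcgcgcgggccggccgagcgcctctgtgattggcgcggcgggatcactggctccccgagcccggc
Tcf7l1, chr6:72788996-72789295, minus strand: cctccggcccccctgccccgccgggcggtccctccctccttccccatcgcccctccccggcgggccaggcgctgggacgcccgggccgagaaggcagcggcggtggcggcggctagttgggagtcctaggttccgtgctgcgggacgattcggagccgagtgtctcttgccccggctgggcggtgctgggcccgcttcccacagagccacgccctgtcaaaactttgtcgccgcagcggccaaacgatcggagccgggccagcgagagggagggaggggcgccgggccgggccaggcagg
Lef1, chr3:131156044-131156343, plus strand: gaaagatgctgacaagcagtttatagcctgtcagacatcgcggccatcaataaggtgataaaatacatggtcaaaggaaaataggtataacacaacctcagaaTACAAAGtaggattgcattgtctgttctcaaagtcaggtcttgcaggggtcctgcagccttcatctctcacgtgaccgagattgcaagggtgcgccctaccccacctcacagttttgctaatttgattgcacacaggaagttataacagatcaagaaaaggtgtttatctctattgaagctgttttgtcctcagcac
Dkkl1, chr7:45211834-45212133, minus strand: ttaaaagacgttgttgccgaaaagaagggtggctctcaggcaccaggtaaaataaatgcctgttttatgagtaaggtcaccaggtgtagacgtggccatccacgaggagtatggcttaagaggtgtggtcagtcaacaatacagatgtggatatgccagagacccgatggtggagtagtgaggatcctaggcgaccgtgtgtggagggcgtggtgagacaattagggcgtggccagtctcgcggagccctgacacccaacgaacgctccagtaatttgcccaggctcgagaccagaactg
Among these windows only that of Lef1 holds a match, TACAAAG, which reads as one of these forms on the opposite strand, and it belongs to the most downstream of 4 annotated Lef1 starts. The windows of the other 3 Lef1 starts, not printed, hold no match. Windows for 38 of the 56 genes were in the table, 46 windows in all, and 7 of them (15.2%) held a match, against 5544 of 32851 windows (16.9%) for all genes. A match describes letters and is no binding site, and positions outside the windows were not searched.

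None of the 35 Wnt genes passed the limma test between mutant and wild-type adult cortex at an adjusted p of 0.05, which 0.0524% of all measured genes passed (6 of 11449). At an unadjusted p under 0.05 there were 3 of the 35 Wnt genes, Wnt7a, Wnt10a and Lrp6, and 520 of all genes. The median log2 difference was 0.015 over the 35 genes and 0.031 over all genes. The arrays of both genotypes did not overlap for 5 of the 35 (14.3%), Wnt7a, Axin2, Lrp6, Fzd6 and Rspo1, with the mutants above in each. Over all genes 9.39% had separate arrays in either direction, and the share with mutants above was not counted. The adult difference was above 0 for 6738 of all 11449 genes and below 0 for 4609.

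Wnt7a, a ligand that in mouse acts on neural progenitors, synapses and brain vessels, ranked 7 of all genes by p. It stood at 5.86, 5.88 and 6.10 in adult mutants and at 5.06, 5.19 and 5.06 in adult wild types. Every mutant was above every wild type, and wild types 1 and 3 were all but equal, at the lowest values of the probe set. The log2 difference was 0.84 (SE 0.13, 1.79-fold, limma adjusted p = 0.0904), which did not pass. The adult wild-type level may be an upper limit and this difference a lower limit. A second probe set of Wnt7a, at 4.37 to 4.60 in adult mutants and 4.48 to 4.97 in adult wild types, differed by -0.25 (adjusted p = 1). It held a repeated low value of 4.476 on several arrays, adult mutant 3 among them, which can hide differences.

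The other 5 adult differences with the lowest p were smaller or more scattered. Wnt10a, another ligand gene, stood at 4.53, 4.62 and 4.93 in adult mutants and at 3.51, 4.18 and 4.71 in adult wild types. Its groups overlapped, since wild type 3 lay above mutants 1 and 2 (log2 difference 0.56, SE 0.24, limma adjusted p = 1). The difference was 0.25 without wild type 1 and 0.85 without wild type 3. The co-receptor gene Lrp6 stood at 8.30, 8.28 and 8.04 in adult mutants and at 7.85, 7.97 and 7.73 in adult wild types. The gap between the lowest mutant and the highest wild type was narrow (log2 difference 0.36, SE 0.16, adjusted p = 1), and a second Lrp6 probe set differed by -0.23.

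Axin2, a negative feedback regulator and target of the pathway, stood at 7.01, 6.85 and 6.95 in adult mutants and at 6.60, 6.24 and 6.56 in adult wild types. The mutants were close to each other and all above the wild types (log2 difference 0.47, SE 0.22, limma adjusted p = 1). Fzd6, a Frizzled receptor gene, stood at 3.63, 4.15 and 4.12 in adult mutants and at an identical 3.57 on all 3 wild-type arrays, the lowest value of its probe set. The wild-type level is thus only an upper limit, and mutant 1 lay just above it (log2 difference 0.39, SE 0.20, adjusted p = 1). Fzd2, also a Frizzled gene, stood at 5.59, 5.62 and 5.68 in adult mutants and at 5.22, 5.34 and 5.67 in adult wild types. Mutant and wild type 3 were level (log2 difference 0.22, SE 0.13, adjusted p = 1).

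Rspo1, an R-spondin gene, also had separate adult arrays, at 7.04, 7.36 and 7.01 in mutants and 6.99, 6.33 and 7.01 in wild types, so that mutant 3 and wild type 3 were all but level (log2 difference 0.36, SE 0.42). For the other adult genes the log2 differences ran from -0.30 for Tcf7l2 to 0.36 for Wnt9a. The beta-catenin gene Ctnnb1 differed by 0.08 with a 95% interval from -0.13 to 0.30. The interval of Fzd1 ran from -0.28 to 0.20. That of Sfrp2 ran from -0.18 to 0.23, but its adult values, 2.19 to 2.24, lay at or next to the floor of the array. It therefore says little about an adult difference. The interval of Tcf7l2 was wider, at -1.16 to 0.56, and its adult values, 2.57 to 3.34, also lay under the level for measured genes.

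**Figure D1:**
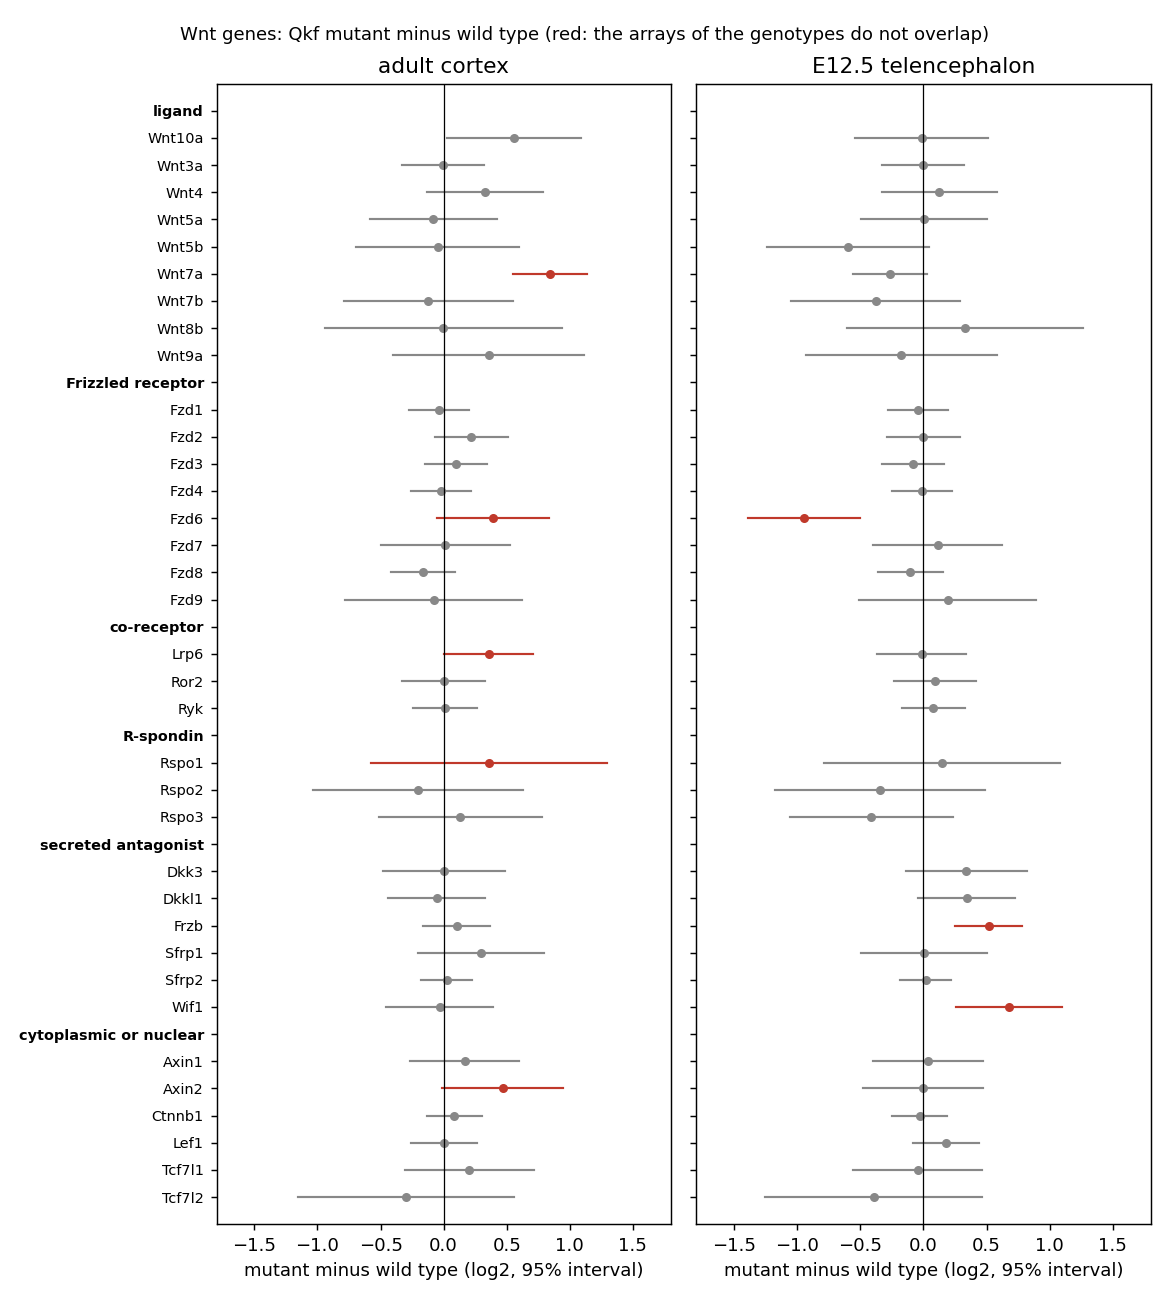
Mutant minus wild-type log2 difference of each of the 35 Wnt genes, by role, in adult cortex (left) and in E12.5 telencephalon (right), with 95% limma intervals over 12 arrays. Red marks genes whose mutant and wild-type arrays do not overlap, 5 in adults and 3 in embryos, and none of the 35 passed the test at either stage.

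Of the measures of tissue and RNA taken on the same adult arrays, the endothelial markers were separate by genotype and the others given here overlapped. The 7 measured endothelial markers of the 8 listed averaged 5.51, 5.71 and 5.60 in adult mutants and 5.34, 5.42 and 5.20 in adult wild types. The log2 difference between the 3' and 5' probe sets of beta-actin was 1.91, 1.47 and 1.09 in adult mutants and 1.13, 1.13 and 1.06 in adult wild types. The 10 measured markers of hem and choroid plexus averaged 3.91, 3.78 and 5.04 in adult mutants, with mutant 3 apart, and 3.99, 3.81 and 4.02 in adult wild types. The 6 measured oligodendrocyte markers of the 7 listed averaged 10.68, 10.94 and 10.69 in adult mutants and 11.20, 10.76 and 11.24 in adult wild types. All 6 differences were below 0, as were those of 4609 of all 11449 genes, and none passed the test. The part of these measures in the Wnt gene differences was not tested.

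In E12.5 telencephalon no Wnt gene passed the test between the genotypes either, where 0.0349% of all genes did (4 of 11449). At an unadjusted p under 0.05 there were 3 of the 35, Fzd6, Frzb and Wif1, and 516 of all genes, all by limma. The arrays of the genotypes were separate for the same 3 genes (8.57%), against 8.29% of all genes. The median log2 difference was -0.002 over the Wnt genes and -0.012 over all genes. All 6 measured genes grouped by symbol as secreted antagonists had a difference above 0, as did 5281 of all 11449 genes. Their median was 0.34, with Sfrp1 at 0.003 and Sfrp2 at 0.02, and none of them passed. Dkkl1, also at 0.34, lay under the level for measured genes on every embryonic array and had passed the filter only through adults.

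Fzd6 was the Wnt gene with the lowest p in embryos. It stood at 4.58, 4.90 and 4.15 in mutant embryos and at 5.74, 5.44 and 5.27 in wild-type embryos. Every mutant lay below every wild type (log2 difference -0.94, SE 0.20, 1.92-fold, limma adjusted p = 0.256). The other 2 Fzd6 probe sets stayed at or near the floor of the array, at 2.19 to 2.20, on all 12 arrays.

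Frzb, a secreted Frizzled-related protein that binds Wnts, stood at 7.64, 7.29 and 7.65 in mutant embryos and at 7.0, 7.06 and 6.96 in wild-type embryos. The mutants were all above the wild types (log2 difference 0.52, SE 0.12, 1.43-fold, limma adjusted p = 0.314). A second Frzb probe set differed by 0.88 in the same direction (adjusted p = 0.782). Wif1, whose product also binds Wnts outside the cell, stood at 8.10, 7.53 and 7.45 in mutant embryos and at 7.40, 6.93 and 6.71 in wild-type embryos. Embryo 1 was the highest of its genotype in both groups, and the mutants were all above the wild types (log2 difference 0.68, SE 0.19, 1.60-fold, limma adjusted p = 0.562).

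Next by p were a pair of ligand genes and an antagonist-like gene. Wnt5b, a ligand gene, stood at 4.88, 4.06 and 4.92 in mutant embryos and at 5.91, 5.01 and 4.74 in wild-type embryos. The groups overlapped, with mutants 1 and 3 above wild type 3 (log2 difference -0.60, SE 0.29, limma adjusted p = 1). It was -0.26 without wild type 1 and -0.32 without mutant 2. Wnt7a stood at 7.53, 7.84 and 7.89 in mutant embryos and at 7.82, 8.04 and 8.21 in wild-type embryos, so wild type 1 lay within the mutant range (log2 difference -0.27, SE 0.13, adjusted p = 1). Dkkl1, a relative of the Dickkopf antagonists, stood at 2.98, 3.21 and 2.98 in mutant embryos and at 2.59, 2.98 and 2.57 in wild-type embryos, all under the level of 4 used for measured genes (log2 difference 0.34, SE 0.17, adjusted p = 1). Mutants 1 and 3 and wild type 2 shared 1 identical value. The 7 endothelial markers averaged 5.57, 5.80 and 5.77 in mutant embryos and 5.44, 5.56 and 5.44 in wild-type embryos. These averages were narrowly separate by genotype, as they were in adults, and all 7 differences were above 0 with none past the test. The 7 microglial markers averaged 4.59, 4.94 and 4.72 in mutant embryos and 4.21, 4.51 and 4.71 in wild-type embryos, on arrays that overlapped. All 7 microglial differences were above 0, as were those of 5281 of all 11449 genes, and none passed the test. The part of these markers in the Wnt gene differences was not tested.

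**Figure D2:**
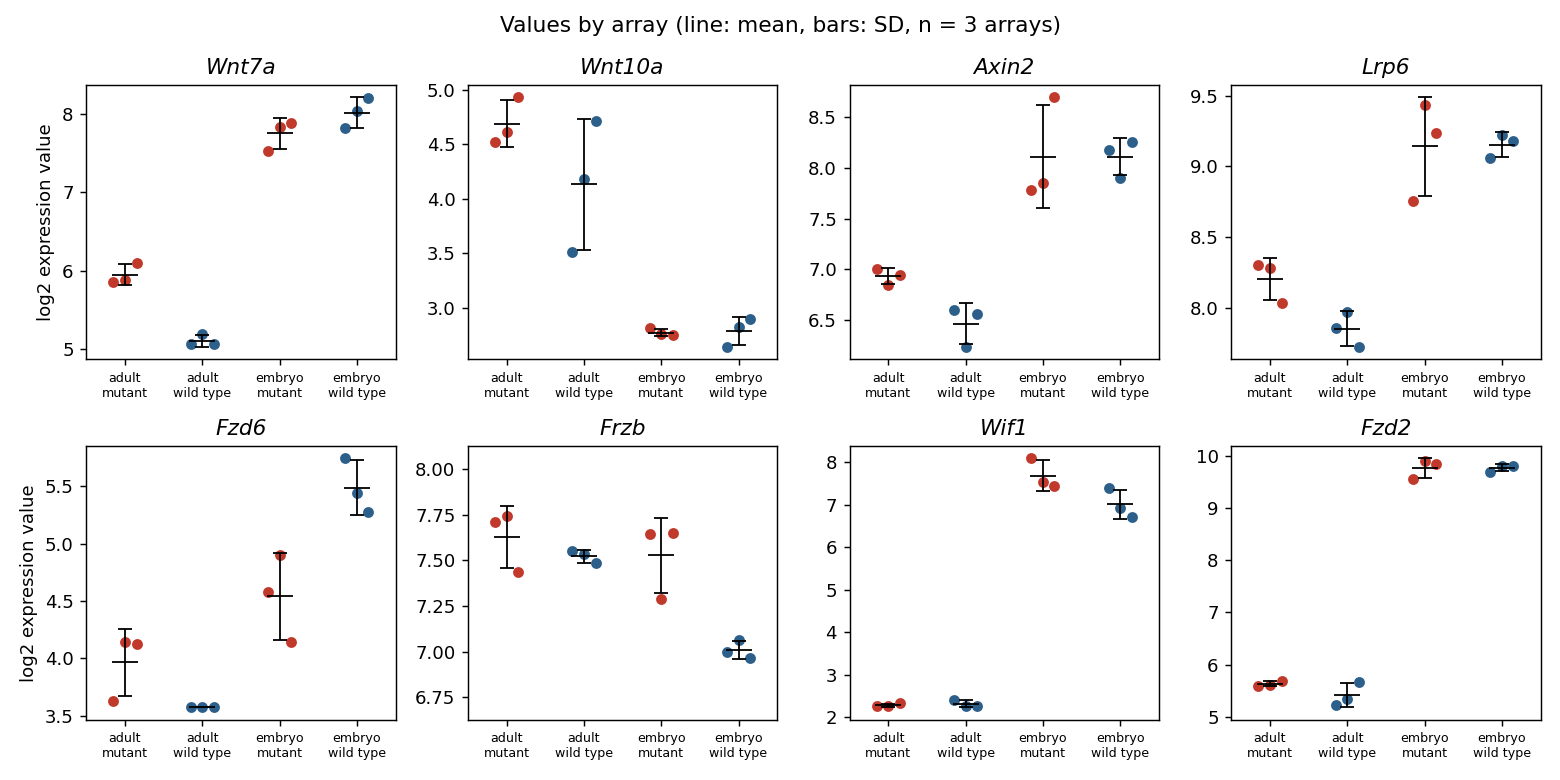
Log2 expression value on each of the 12 arrays for 8 Wnt genes named in the comparison of the genotypes, with mutant (red) left of wild type (blue) at each stage, the line at the mean and bars of 1 SD (n = 3). Wnt7a is separate in adults, with mutants at 5.86 to 6.10 and wild types at 5.06 to 5.19, and Fzd6 is separate in embryos, with mutants at 4.15 to 4.90 and wild types at 5.27 to 5.74.

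The mutant effect was compared between the stages by subtracting the embryonic from the adult log2 difference. No Wnt gene passed this limma test, and 0% of all genes did (0 of 11449). At an unadjusted p under 0.05 there were 4 of the 35 Wnt genes and 630 of all genes. For Wnt7a the adult difference of 0.84 and the embryonic one of -0.27 were 1.11 apart (SE 0.19, adjusted p = 0.235), and for Fzd6 the adult 0.39 and the embryonic -0.94 were 1.34 apart (SE 0.28, adjusted p = 0.441). Both genes thus had mutants on the higher side in adult cortex and on the lower side in embryonic telencephalon, without passing the test. The difference was -0.71 for Wif1 (SE 0.27, adjusted p = 0.867), -0.41 for Frzb (SE 0.17, adjusted p = 0.872), 0.57 for Wnt10a (SE 0.34) and 0.37 for Lrp6 (SE 0.23), the last 2 with an adjusted p of 0.936.

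Other probe sets of the Wnt genes gave a mixed picture for genotype. Besides the probe set that stood for a gene, 25 further probe sets of 18 genes had values over 4 on at least 3 arrays. In embryos 20 of these 25 had the sign of the probe set that stood for the gene. In adults 22 pairs had a difference other than 0.000 on both sides, and 8 of the 22 shared the sign. When all 20292 probe sets over the level were tested by limma, the lowest adjusted p among the 60 Wnt probe sets was 0.134 in adults and 0.259 in embryos.

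Adult cortex and E12.5 telencephalon differed far more than the genotypes. In wild types 28 of the 35 Wnt genes fell with age (80%), as 43% of all genes did, and 6 rose (17.1%), as 38.4% of all genes did. In mutants 27 fell (77.1%), beside 42.2% of all genes, and 5 rose (14.3%), beside 39.5%. The median log2 difference, adult minus embryo, was -1.73 in wild types and -1.60 in mutants for the Wnt genes, and -0.08 and -0.05 for all genes. Fzd4 did not pass in either genotype, and Rspo2 and Frzb passed in wild types but not in mutants. Whether a stage difference itself differs between the genotypes is the same contrast as that of the mutant effect between the stages, which no gene passed.

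Because 12 of the 35 had entered through a single stage, the count was repeated over the 23 Wnt genes measured at both. In wild types 19 of them fell (82.6%) and 3 rose (13%), against 43.3% and 35.8% of the 9852 genes measured at both stages. In mutants 18 fell (78.3%) and 2 rose (8.7%), against 42.4% and 37.1%. Among the 23 in wild types, falls covered 4 of 5 Frizzled genes, both co-receptors, all 3 R-spondins, all 5 cytoplasmic or nuclear genes, 4 of 5 ligands and 1 of 3 secreted antagonists, and the rises were 1 ligand and 2 antagonists. The 9 genes that passed only through embryonic arrays all fell, namely Fzd6, Fzd8, Fzd9, Ror2, Sfrp2, Tcf7l2, Wif1, Wnt5b and Wnt8b. The 3 that passed only through adult arrays, Dkkl1, Wnt4 and Wnt10a, all rose. The filter favoured these directions. The counts by role and the largest falls and rises below include these 12 genes. In wild types 43% of all genes fell and 38.4% rose. The part of the array set in these differences cannot be told apart from that of stage.

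**Figure D3:**
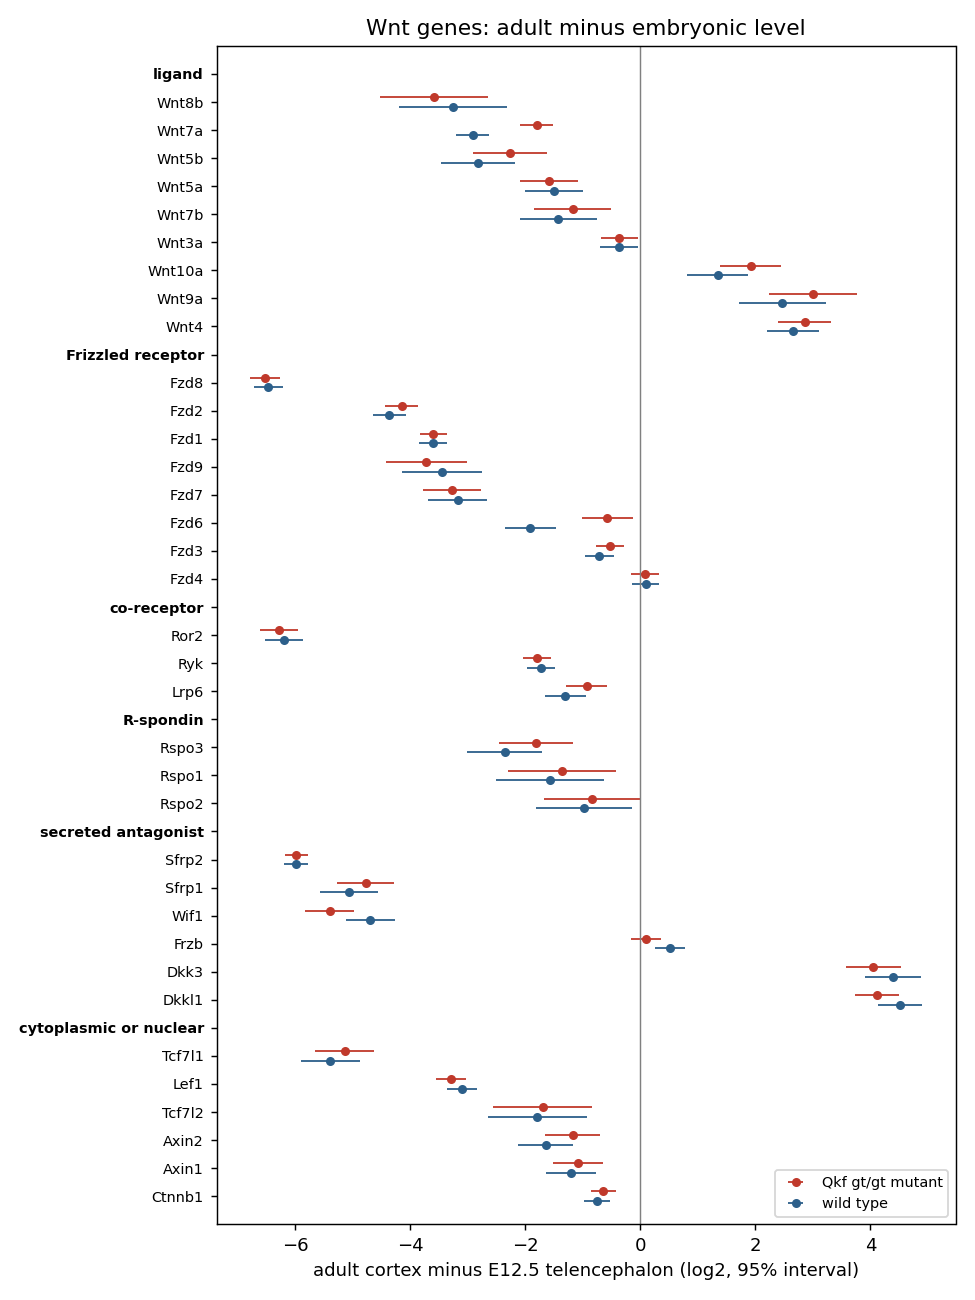
Adult minus embryonic log2 difference of each of the 35 Wnt genes, by role, in Qkf gt/gt mutants (red, above) and in wild types (blue, below), with 95% limma intervals over 12 arrays. Most genes lie left of 0 in both genotypes, and Wnt10a, Wnt9a, Wnt4, Dkk3 and Dkkl1 lie to the right. Frzb (0.51 in wild types and 0.10 in mutants) and Fzd4 (0.09 and 0.08) also lie to the right, by less.

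Among the ligands, Wnt4, Wnt9a and Wnt10a rose and the other 6 fell. Wnt4 stood at 5.57, 6.05 and 6.42 in adult mutants and 5.42, 5.95 and 5.68 in adult wild types, and at 3.23, 3.00 and 3.23 in mutant embryos and 3.03, 3.21 and 2.84 in wild-type embryos. All adults were above all embryos (wild-type log2 difference 2.65, SE 0.21, limma adjusted p = 2.45e-07), and a second Wnt4 probe set rose by 3.38. Wnt9a stood at 8.28, 8.64 and 8.59 in adult mutants and 8.45, 7.51 and 8.46 in adult wild types, and at 5.40, 5.32 and 5.79 in mutant embryos and 6.50, 5.13 and 5.40 in wild-type embryos. Wild-type embryo 1 was the highest embryo and still below every adult (wild-type log2 difference 2.47, SE 0.34, adjusted p = 3.88e-05). Wnt10a, whose adult values are given above, stood at 2.81, 2.76 and 2.74 in mutant embryos and 2.64, 2.83 and 2.89 in wild-type embryos. Every adult was above every embryo, with a rise of 1.35 in wild types (SE 0.24, adjusted p = 0.000287) and 1.92 in mutants.

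The ligand genes that fell are in part those of the embryonic midline. Wnt8b, a hem and hippocampal ligand gene in mouse embryos, stood at 2.68 on all 6 adult arrays, to 2 decimals, and at 5.996 to 6.76 in mutant embryos and 5.13 to 7.22 in wild-type embryos (wild-type log2 difference -3.26, SE 0.43, limma adjusted p = 2.18e-05). Wnt7a fell by 2.92 in wild types (7.55-fold) and by 1.81 in mutants (3.5-fold). The wild-type fall may be a lower limit, since adult wild types 1 and 3 were at the lowest values of the probe set. A second Wnt7a probe set differed by -0.31 between the stages in wild types (limma adjusted p = 0.452). It stood at 4.476, to 3 decimals, in wild-type embryos 1 and 3, mutant embryos 2 and 3 and adult mutant 3. Such a repeated low value can hide differences, and the fall rests on a single probe set. Wnt5b fell by 2.82 in wild types, Wnt5a, a ligand of the beta-catenin-independent branch, by 1.51, and Wnt7b by 1.43.

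Wnt3a, a ligand gene of the cortical hem, differed by -0.37 in either genotype (limma adjusted p = 0.0356 in wild types and 0.0368 in mutants). Its value was an identical 5.50 on 5 adult arrays and on mutant embryo 2, and adult mutant 3 lay within 0.01 below it. The adult level may therefore be an upper limit and the fall a lower limit. In wild types the call was lost when adult wild type 1, 2 or 3 or wild-type embryo 2 or 3 was omitted (adjusted p of 0.067 to 0.106). In mutants it was lost without adult mutant 1, 2 or 3 or mutant embryo 1 or 3 (0.071 to 0.16). The 10 ligand genes Wnt1, Wnt2, Wnt2b, Wnt3, Wnt6, Wnt8a, Wnt9b, Wnt10b, Wnt11 and Wnt16 did not reach the level for measured genes, and their highest array stood between 2.19 and 2.64.

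Among the Frizzled receptor genes 7 of 8 fell and Fzd4 did not pass. Of those that fell, Fzd6, Fzd8 and Fzd9 passed the filter only through embryonic arrays. Fzd8 had the largest fall of the Wnt genes by its estimate, at 3.52, 3.42 and 3.72 in adult mutants and 3.72, 3.73 and 3.70 in adult wild types, and at 9.997, 9.95 and 10.31 in mutant embryos and 10.26, 10.13 and 10.17 in wild-type embryos. Each group was tight (wild-type log2 difference -6.47, SE 0.12, limma adjusted p = 9.24e-13), and a second Fzd8 probe set also fell by 6.47. Fzd2 fell by 4.37, Fzd1 by 3.61, Fzd9 by 3.45 and Fzd7 by 3.17 in wild types, each a receptor that takes up Wnt ligands at the membrane. In mutants Fzd2 fell by 4.15, Fzd1 fell by 3.601, Fzd9 fell by 3.72 and Fzd7 fell by 3.27.

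Fzd6 fell by 1.91 in wild types (SE 0.20, limma adjusted p = 3.39e-06) and by 0.58 in mutants (adjusted p = 0.0201). In the mutants that call was lost without adult mutant 1 (-0.41, adjusted p = 0.0906) or without mutant embryo 2 (-0.40, adjusted p = 0.0906). Fzd3, a receptor of axon guidance and tissue polarity in mouse, fell by 0.71 in wild types, and 3 further Fzd3 probe sets fell by 2.06 to 2.88. Fzd4, the receptor of the vascular ligand norrin, stood between 7.51 and 7.88 on all 12 arrays, with adult and embryonic values mixed (wild-type log2 difference 0.09, 95% interval from -0.15 to 0.33). Adult mutants 1 and 2, adult wild type 1 and wild-type embryos 1 and 3 shared the value 7.82. Fzd5, Fzd10 and Fzd10os, a transcript from the opposite strand at Fzd10 that the symbol rule took in, were below the level for measured genes, with highest arrays at 4.05, 3.47 and 2.67.

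The co-receptors all fell. Ror2, a receptor tyrosine kinase that binds Wnt5a, stood at the floor of 2.19 on all 6 adult arrays, and at 8.72, 8.24 and 8.46 in mutant embryos and 8.38, 8.11 and 8.66 in wild-type embryos. The adult values have no order at the floor, and the fall of 6.19 in wild types (SE 0.15, limma adjusted p = 1.00e-11) is therefore a lower limit on the log2 scale. Ryk, a catalytically inactive kinase receptor for Wnts, fell by 1.73 in wild types, and Lrp6 by 1.30 in wild types and 0.93 in mutants. Lrp5 did not exceed 2.19 on any array and Ror1 reached 4.48 at most.

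The 3 measured R-spondin genes, whose products keep Frizzled at the membrane, all fell in wild types. Rspo3 fell by 2.36 in wild types (SE 0.29, limma adjusted p = 1.41e-05), Rspo1 by 1.57 (SE 0.43, adjusted p = 0.00505) and Rspo2 by 0.98 (SE 0.38, adjusted p = 0.0316). In mutants Rspo3 fell by 1.81 and Rspo1 by 1.36, while Rspo2 differed by -0.84 (adjusted p = 0.0595). Without wild-type embryo 1 the Rspo2 difference was -0.48 in wild types (adjusted p = 0.114), and the call was also lost without adult wild type 1 (0.0894) or 3 (0.102). In mutants, leaving out wild-type embryo 1 or 2, which changes only the estimate of spread, brought Rspo2 past the test (adjusted p = 0.0066 and 0.0426). Rspo4 did not exceed 2.19 on any array.

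The genes grouped by symbol as secreted antagonists split into 3 that fell and 3 that rose in wild types. Of these, Sfrp2 and Wif1 passed the filter only through embryonic arrays, and Dkkl1 only through adult arrays. Sfrp2, which encodes a secreted Frizzled-related protein, stood at 2.24, 2.24 and 2.20 in adult mutants and 2.22, 2.19 and 2.19 in adult wild types, and at 8.23, 8.16 and 8.23 in mutant embryos and 8.27, 8.29 and 8.01 in wild-type embryos. All adults were at or next to the floor (wild-type log2 difference -5.99, SE 0.09, limma adjusted p = 3.31e-13). Its relative Sfrp1 stood at 6.27, 5.90 and 5.98 in adult mutants and 5.30, 5.75 and 6.21 in adult wild types, and at 10.61, 10.62 and 11.24 in mutant embryos and 10.81, 10.81 and 10.84 in wild-type embryos (-5.07, SE 0.23, adjusted p = 1.83e-09). The 4 further Sfrp1 probe sets fell by 1.95 to 6.33. Wif1 was near the floor in adults, at 2.27, 2.27 and 2.33 in mutants and 2.41, 2.27 and 2.28 in wild types, far below the embryos given above. It fell by 5.40 in mutants and by 4.69 in wild types (SE 0.19, adjusted p = 8.94e-10 in wild types).

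Dkkl1 had the largest rise of the 35 by its estimate, with 6.89, 7.05 and 7.58 in adult mutants and 7.21, 7.20 and 7.26 in adult wild types, against 2.57 to 3.21 in embryos (wild-type log2 difference 4.51, SE 0.17, limma adjusted p = 5.33e-10). Dkk3, the divergent member of the Dickkopf family, stood at 10.33, 10.05 and 9.97 in adult mutants and 10.22, 9.84 and 10.27 in adult wild types, and at 5.57, 6.11 and 6.51 in mutant embryos and 5.93, 5.64 and 5.60 in wild-type embryos. Adults and embryos were far apart (4.39, SE 0.22, adjusted p = 4.79e-09), and a second Dkk3 probe set rose by 3.96. Frzb stood at 7.71, 7.74 and 7.43 in adult mutants and 7.55, 7.53 and 7.48 in adult wild types, so that adult and embryonic mutants overlapped and adult and embryonic wild types did not. It rose by 0.51 in wild types (SE 0.12, adjusted p = 0.00205) and differed by 0.10 in mutants (adjusted p = 0.454). Averaged over both its probe sets the difference was 0.33 in wild types (adjusted p = 0.101) and turned to -0.39 in mutants (adjusted p = 0.0552). The second of these probe sets differed by 0.14 in wild types (limma adjusted p = 0.661) and fell by 0.88 in mutants (adjusted p = 0.0145). Dkk1, Dkk4, Sfrp4 and Sfrp5 stayed at or below 2.58 and Dkk2 reached 4.86 at most.

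All 6 genes of the cytoplasm and nucleus fell. Tcf7l1, a Tcf factor known mainly as a repressor, stood at 5.25, 4.65 and 5.31 in adult mutants and 5.30, 4.79 and 4.51 in adult wild types, and at 10.31, 10.45 and 9.87 in mutant embryos and 10.29, 10.30 and 10.19 in wild-type embryos. Adults were far below embryos (wild-type log2 difference -5.39, SE 0.23, limma adjusted p = 1.32e-09), though a second Tcf7l1 probe set fell by only 1.87. Lef1, a Wnt-responsive activator, was at an identical 4.69 on all 6 adult arrays and at 7.56 to 8.14 in embryos. That shared adult value was the lowest of the probe set, so the fall of 3.11 in wild types (SE 0.12, adjusted p = 4.93e-10) is a lower limit although the adults counted as measured.

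Tcf7l2, at 2.57 to 3.34 in adults, fell by 1.79 in wild types (limma adjusted p = 0.00121) and by 1.70 in mutants. Axin2 fell by 1.65 in wild types and by 1.18 in mutants, and its paralogue Axin1, the scaffold of the destruction complex, by 1.21 and 1.08. Ctnnb1, the beta-catenin gene, fell the least, by 0.76 in wild types and 0.64 in mutants, and its 2 other probe sets fell by 1.30 and 1.88 in wild types. All 25 further probe sets of the Wnt genes had the wild-type stage direction of the probe set that stood for the gene, and 23 of them passed in that direction. Some of the 25, such as those of Fzd8, Ror2 and Wnt8b, reached the level for measured genes only through embryonic arrays. That of Wnt4 reached it only through adult arrays. For these the filter favoured the direction.

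**Figure D4:**
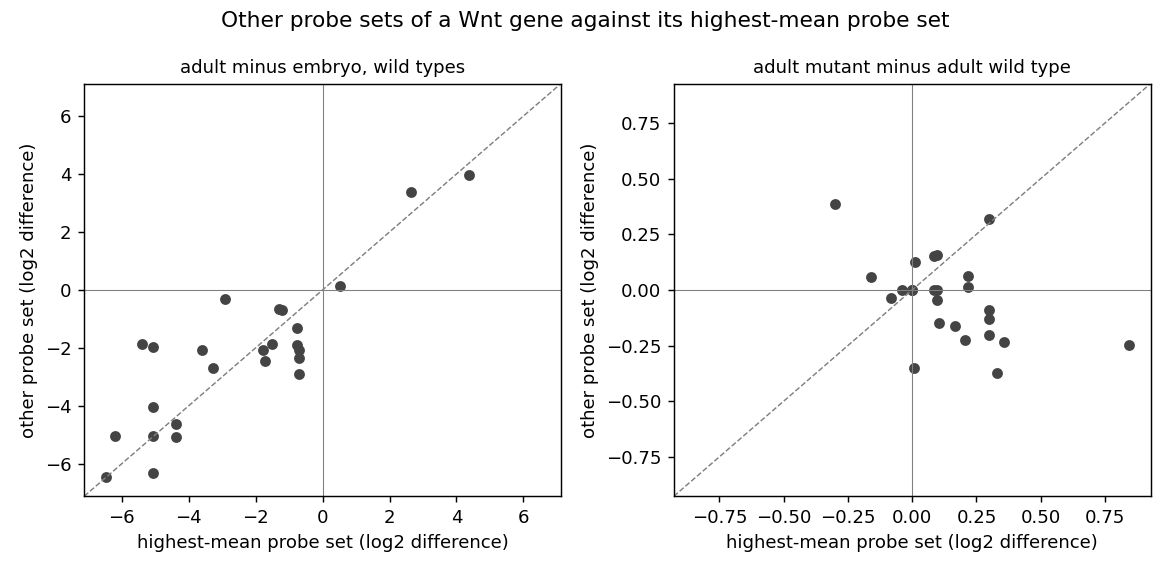
Log2 difference of each of 25 further Wnt probe sets against that of the highest-mean probe set of its gene, for adult minus embryonic wild types (left) and for adult mutants minus adult wild types (right), with the dashed line at equality. On the left all 25 share the direction, and on the right 8 of the 22 whose differences are not 0 do. Some of the 25 passed the filter only through arrays of a single stage, which favoured the direction on the left.

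Identical values on several arrays were common and bear on these levels. Of the 35 Wnt genes 12 (34.3%) had a value that was identical to 6 decimals on at least 2 arrays, against 24.5% of all genes. The widest were Lef1 and Ror2 on 6 adult arrays, Wnt3a on 6 arrays and Fzd4 on 5. For Fzd4, Fzd8, Dkkl1, Sfrp2, Wnt5b and Wnt9a the shared value was not the lowest of the probe set. Nor was it for Wnt3a and Wnt8b, though only narrowly. Adult mutant 3 stood at 5.495 under a shared 5.50 for Wnt3a, and at 2.678 under a shared 2.684 for Wnt8b.

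Several Wnt genes lay apart by the parents of the embryos. Both embryos of cross A lay above or below all 4 of cross B for 11 of the 35 genes (31.4%), beside 27.8% of all genes. All 3 measured R-spondin genes were among the 6 with cross A above, with Fzd7, Wnt8b and Tcf7l2. Axin1, Fzd2, Fzd9, Lrp6 and Wnt7a had cross A below.

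Rspo1 stood at 8.92 in mutant embryo 1 and 9.51 in wild-type embryo 1, against 8.003 and 8.56 in mutants and 7.91 and 7.62 in wild types of cross B. Rspo2 stood at 8.44 and 9.66 in that order in cross A and at 8.02 to 8.42 in cross B. Rspo3 stood at 9.43 and 10.38 in cross A and at 8.87 to 9.25 in cross B. In each of the 3 genes wild-type embryo 1 was the highest embryo, and it shared its array set with cross B.

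Wnt8b stood at 6.76 to 7.22 in cross A and 5.13 to 6.07 in cross B, and Tcf7l2, a Tcf factor strongly expressed in mouse thalamus, at 5.09 to 5.82 and 3.76 to 4.81. Fzd9 ran the other way, at 6.65 to 6.87 in cross A and 7.59 to 8.08 in cross B. Beside these genes, the 5 measured markers of ventral telencephalon of the 10 listed averaged 7.18 and 7.55 in cross A and 3.70 to 5.39 in cross B. The 10 markers of hem and choroid plexus averaged 5.15 and 5.50 in cross A and 5.70 to 6.62 in cross B. Single markers of this list, Bmp6 among them, did not all follow the order of the average. The 6 measured thalamic markers of the 8 listed, Tcf7l2 not among them, averaged 6.48 and 6.55 in cross A and 6.11 to 6.42 in cross B, and the 9 markers of meninges and pericytes averaged 7.49 and 7.05 in cross A and 7.94 to 8.20 in cross B. The part of the dissected region in the Wnt gene values was not tested.

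**Figure D5:**
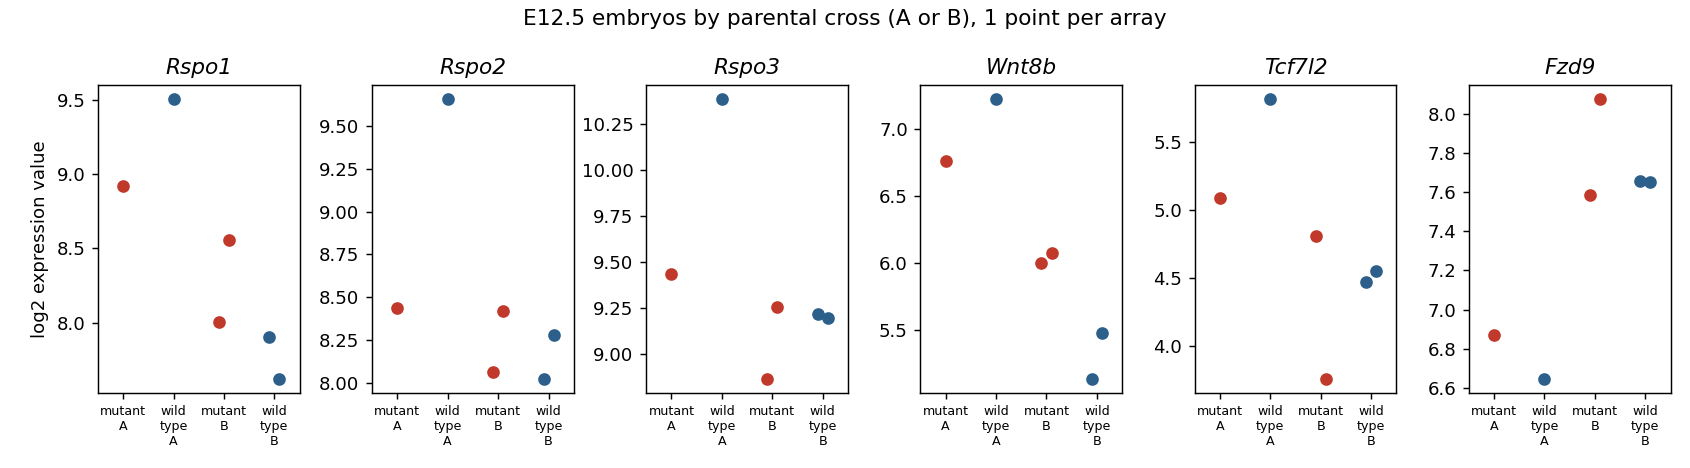
Log2 expression value on each embryonic array for 6 Wnt genes, by parental cross (A or B) and genotype (red, mutant, blue, wild type). Rspo1, Rspo2, Rspo3, Wnt8b and Tcf7l2 have both cross A embryos above all 4 of cross B, and Fzd9 has them below.

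Genes that work around the ligands and receptors showed no genotype call either. In 7 lists of pathway genes, with 88 measured genes outside the 35, none passed the limma test in adults, in embryos or in the difference between the stages. At an unadjusted p under 0.05 there were 2 of the 88 in adults (2.27%, against 4.54% of all genes), 7 in embryos (7.95%, against 4.51%) and 3 in the difference (3.41%, against 5.5%). Of 6 measured Wnt secretion genes, the lowest adjusted p was 0.54, for the glypican gene Gpc3 in embryos (log2 difference -0.44). Of 12 planar cell polarity genes it was 0.611, for Prickle2 in embryos (0.34), and of 12 other modulators 0.519, for the Dickkopf co-receptor gene Kremen1 in embryos (-0.34). In the 4 remaining lists every adjusted p was 1 at both stages, and so it was for every listed gene in adults.

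The 2 genes of each list with the lowest p in adults, none of which passed, had log2 differences between -0.48 and 0.38. They were Gpc6 (-0.25) and the Wnt protease gene Trabd2b (-0.15) for secretion, Tnks and the phosphatase subunit gene Ppp2r5d (0.22 each) for the destruction complex, the corepressor gene Tle1 (0.30) and the acetyltransferase gene Ep300 (0.15) among nuclear cofactors, and Znrf3 (-0.19) and Lgr4 (0.01) among R-spondin receptors. Target and feedback genes were led by the Dishevelled antagonist gene Nkd1 (-0.48) and by Nrcam (-0.13), planar cell polarity genes by Celsr3 (0.27) and Daam1 (0.21), and other modulators by Lrp1 (0.38) and Tspan12 (-0.35). In embryos, beside Gpc3, Prickle2 and Kremen1, the lowest p belonged to Trabd2b (0.24), Siah1a (0.21), Gsk3a (0.20), Tle2 (-0.73), Ep300 (-0.17), Znrf3 (0.15), Lgr4 (-0.07), Tnfrsf19 (0.24), Nkd1 (0.36), Invs (0.22) and Tspan12 (-0.47, adjusted p = 0.883).

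With stage those lists moved both ways in wild types, to be read beside the 38.4% of all genes that rose and the 43% that fell. Among secretion genes 1 rose, Porcn, the acyltransferase that lipidates Wnts (3.16), and 4 fell, led by Gpc4 (-4.79) and Gpc3 (-2.74). Of 21 destruction complex and Dishevelled genes 8 rose, led by the tankyrase gene Tnks2 (1.92) and Apc (1.44), and 8 fell, led by Dvl2 (-1.34) and Siah1a (-1.26). Of 20 nuclear cofactors 4 rose, led by Tle2 (2.47) and Nlk (1.60), and 13 fell, led by the corepressor genes Ctbp2 (-3.88) and Hdac1 (-3.65). The R-spondin receptor gene Lgr4 rose (2.31) and Znrf3, whose product removes Frizzled from the membrane, fell (-1.0).

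Of 16 target and feedback genes 4 rose, led by Nrcam (2.80) and Cd44 (1.62), and 11 fell, led by the forebrain transcription factor genes Sp8 (-6.01) and Emx2 (-5.26). Of 12 planar cell polarity genes 6 rose, led by Prickle2 (7.72) and Daam1 (6.43), and 5 fell, led by Celsr1 (-6.09) and Vangl2 (-4.59). Of 12 other modulators 3 rose, led by Dact3 (4.02) and Lrp1 (1.47), and 6 fell, led by Shisa2 (-7.63) and Draxin (-3.97).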

How the data were processed

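The deposited values are log2 expression values, 1 for each of 45101 Affymetrix probe sets and 12 arrays, made by the authors with GCRMA per the submitters' processing notes, whose version and settings the sources do not state. GCRMA corrects background by probe sequence and leaves weak probe sets at a shared floor, here 2.19, where 26.3% to 27.6% of the probe sets of an array lay. That floor hides differences between weak genes. Array medians ran from 3.64 to 3.74. Precision is set by having 3 arrays per group.

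GEO's platform annotation gave 34945 probe sets a single symbol, 932 several and 9160 none, beside 64 control probe sets. Symbols were updated through RefSeq for 34741. Genes with a log2 value over 4 on at least 3 arrays were tested, by their highest-mean probe set, with limma 3.58.1 in R 4.3.3. One fit over all 12 arrays gave 4 group means with 8 residual degrees of freedom, and p-values were adjusted by Benjamini-Hochberg over all 11449 genes, at a threshold of 0.05. Arrays with 3 per group cannot reach a permutation p under 0.1, so no permutation test was run. No label says that embryonic arrays came from separate litters, so p-values measure the spread between these arrays.

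The genes, lists and tests were chosen with earlier results of these data known. Per-array values are given for the 6 Wnt genes with the lowest p in each genotype contrast and the 6 largest rises and falls between stages in wild types, and the pathway genes named are the 2 of each list with the lowest p or the largest stage difference each way. The pairing was checked from deviations from group means. Embryos of different genotype but the same cross, which the labels record, correlated at 0.51 (cross A) and 0.14 to 0.25 (cross B), and those of different crosses at -0.36 to -0.23. Adult age pairs correlated at 0.19, -0.01 and 0.27, and other adult pairs at -0.30 to 0.23. The fit was tested on simulated data. Alternatives to filter, probe set, scaling, samples, variance model, array weights, block and single arrays were run.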

Additional observations from a re-analysis of the deposited data

Results flagged for a closer look

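Fzd6 had every adult mutant above and every mutant embryo below the wild types of its stage. The adult effect minus the embryonic effect was 1.34 on the log2 scale (SE 0.28), but this test of the difference did not pass over all genes (limma adjusted p = 0.441). Leaving out single arrays gave 1.14 to 1.52 (adjusted p of 0.234 to 0.896). The adult wild-type level was a repeated lowest value, and the part of that in the difference was not tested.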

How the results depend on the processing

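No Wnt gene passed in embryos under any of 24 alternatives. With array weights 1 Wnt gene, Wnt7a, passed in adults (0.81, limma adjusted p = 0.015) and 1, again Wnt7a, in the difference between the stages (1.06, adjusted p = 0.0429), and under each of the other alternatives 0 did. Leaving out single arrays kept these 3 counts at 0, with adult Wnt7a at 0.77 to 0.89 (adjusted p of 0.0658 to 0.498). Averaging probe sets took adult Wnt7a to 0.30 (adjusted p = 1) and adult Lrp6 to 0.06. With the replicate block of age pair and cross, adult Wnt7a was 0.84 (adjusted p = 0.0747), embryonic Fzd6 -0.94 (adjusted p = 0.328) and Wif1 0.68 (adjusted p = 0.138). The replicate block changed no call of a Wnt gene, while over all genes 3 passed in adults, 1 in embryos and 0 in the difference, against 6, 4 and 0 without it. Of the 35, the stage test called 32 to 34 in wild types and 30 to 33 in mutants, also when single arrays were left out. Among the genotype and wild-type stage differences with values for each array, none changed sign. Of the other stage differences, that of Frzb in mutants (0.10) turned with the mean of probe sets (-0.39) or without mutant embryo 2 (-0.02), and that of Fzd4 turned in wild types without wild-type embryo 2 (-0.01) and in mutants with centred arrays (-0.01), all without passing. Kat6b missed the threshold in adults without the filter (adjusted p = 0.104), and with arrays of a single stage in adults (0.071) and embryos (0.486), where fewer arrays estimate the spread. Averaged over probe sets, its difference between the stages passed (2.13, adjusted p = 0.0337, against 1.84 and 0.528). Rspo2 passed in mutants with centred arrays (-0.93, adjusted p = 0.0369) or a variance trend (adjusted p = 0.0468), and Frzb with array weights (0.31, adjusted p = 0.0146). Wnt3a was lost in wild types without the filter (0.0602) or with a variance trend (0.0585), and Rspo2 without the filter (0.0853). The cause of these changes was not tested. The floor and repeated low values limit what weak genes can show.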
